A study of Mus musculus with 10 samples.

Results

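Cytosolic ribosomal proteins were followed in mouse fibroblasts kept with group 2 innate lymphoid cells (ILC2s) or alone. Genes were taken by symbol, as Rpl or Rps with a number, Rplp0, Rplp1, Rplp2, Rpsa and Fau, without pseudogenes and without the Rps6k kinases. The rule found 84 genes among the 22731 genes of the count table. Of these, 46 encode standard proteins of the large subunit, 32 encode standard proteins of the small subunit, and 6 are paralogs (Rpl7l1, Rpl22l1, Rpl36al, Rpl39l, Rps27l and Rps27rt). Rpl3l and Rpl10l also fit the rule and were not analysed here. Of the 84 genes, 83 passed the filter on low counts. The exception was the paralog Rpl39l, with 1, 1 and 0 reads in WT cocultures, 0 reads in each IL13KO coculture, and 0, 4, 0 and 1 reads in monocultures.

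The groups were WT coculture, in which the fibroblasts shared the dish with wild-type ILC2s (3 libraries), IL13KO coculture, in which the ILC2s were without IL-13 (3 libraries), and monoculture, fibroblasts alone (4 libraries). The fibroblasts carry the genotype C57B6 in the labels in all 3 groups. They were sorted as Pdpn+ Pdgfra+ cells negative for CD45, Epcam and CD31, and sorted again on Pdpn and Pdgfra after coculture. The study's description gives this second sort as CD45+, although the cells put into culture were CD45-. The labels do not say whether libraries of 1 group came from separate animals or cultures, so p-values measure the spread between these libraries, which may be technical. Age and culture time are not given in the labels used here. The WT cocultures are called 1, 3 and 4, after the numbers of their columns in the count table.

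A ribosome is built from ribosomal RNA and ribosomal proteins, which join into a small subunit that decodes the mRNA and a large subunit that forms the peptide bond. In most cells the ribosomal protein mRNAs are abundant, short and made in balanced amounts. Many of them start with a tract of pyrimidines (the 5′ terminal oligopyrimidine or TOP tract), through which the kinase complex mTORC1 controls their translation. RNA sequencing measures the amount of these mRNAs and says nothing of how often they are translated.

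Total counts were 18801744 to 22087459 in WT cocultures, 17277432 to 17661229 in IL13KO cocultures and 10710410 to 14366199 in monocultures. All 8 fibroblast markers were detected in every group. Their summed level was 11761 to 16099 CPM (TMM-normalised counts per 1000000 counts of a library) in WT cocultures, 22003 to 27203 CPM in IL13KO cocultures and 7161 to 10074 CPM in monocultures. The order of these sums was mostly that of Col1a1, which averaged 6756 CPM in WT cocultures, 11570 CPM in IL13KO cocultures and 1070 CPM in monocultures. Dcn went the other way, with averages of 369, 1650 and 2532 CPM in the same order of groups. The sum of 6 leukocyte markers, all in the table, was mostly Cd53. This sum was 94.2 to 118 CPM in WT cocultures, 13.5 to 20.7 CPM in IL13KO cocultures and 2.89 to 4.51 CPM in monocultures. For Ptprc, the gene of CD45, 6, 3 and 9 reads were counted in WT cocultures, 0, 1 and 0 reads in IL13KO cocultures, and none in monocultures. Il13 had 30, 120 and 121 reads in WT cocultures and none in the libraries of the other 2 groups. The 7 ILC2 markers in the table, mostly through Il1rl1 in WT cocultures, summed to 1256 to 1506 CPM in WT cocultures, 74.4 to 77.9 CPM in IL13KO cocultures and 65.5 to 81.8 CPM in monocultures. In the last 2 groups the sum was mostly Rora, with averages of 55.3 and 63.7 CPM (adjusted p = 0.13 by edgeR). Called higher by edgeR in IL13KO coculture than in monoculture were Il1rl1 (16.1 against 6.89 CPM, adjusted p = 8.2e-05), Il5 (2.01 against 0 CPM, adjusted p = 0.0027) and Gata3 (2.69 against 1.36 CPM, adjusted p = 0.032). Macrophage markers summed to 14.9 to 17.7 CPM in WT cocultures, 35.3 to 37.1 CPM in IL13KO cocultures and 58.3 to 65.6 CPM in monocultures. The order of these sums was mostly that of Lyz2, which averaged 2.85, 23.8 and 53.4 CPM in the same order of groups. Csf1r went the other way. Its log2 fold changes against monoculture by edgeR were 0.52 in WT coculture (adjusted p = 0.021) and 0.44 in IL13KO coculture (adjusted p = 0.0505). The acinar, ductal and endothelial lists summed to at most 23.8 CPM in any library.

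The start regions of a few members show a pyrimidine tract near the annotated start, which need not be a TOP tract. RefSeq promoter windows on GRCm38.p6 were found for 64 members, in 75 windows. Each line below gives 30 bases before and 20 bases from the annotated start, 5′ to 3′ on the gene's strand. Capitals mark a C followed by at least 4 more C or T. Among the genes shown, only Rps27rt has a marked tract that begins exactly at the annotated start. Rps27 and its near copy Rps27rt, Rps26, Rpl22l1 and Rpl36a are shown because they were among the members with the lowest coculture levels relative to monoculture. Rplp2 and Rps12 are shown because they were not called lower in either coculture.
Rps27: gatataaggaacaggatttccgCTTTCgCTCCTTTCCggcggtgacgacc
Rps27rt: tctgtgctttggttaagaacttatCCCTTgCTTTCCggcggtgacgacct
Rps26: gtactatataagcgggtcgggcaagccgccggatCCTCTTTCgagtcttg
Rpl22l1: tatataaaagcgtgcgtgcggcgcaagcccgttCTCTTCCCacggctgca
Rpl36a: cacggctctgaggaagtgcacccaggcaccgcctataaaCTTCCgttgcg
Rplp2: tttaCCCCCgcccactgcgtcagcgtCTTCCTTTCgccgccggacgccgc
Rps12: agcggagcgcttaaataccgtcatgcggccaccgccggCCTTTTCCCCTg

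These windows are chr3:90213629-90213678 on the minus strand for Rps27, chr9:114982720-114982769 on the minus strand for Rps27rt, chr10:128626487-128626536 on the minus strand for Rps26, and chr3:28805478-28805527 on the plus strand for Rpl22l1. They are chrX:134585624-134585673 on the plus strand for Rpl36a, chr7:141447621-141447670 on the plus strand for Rplp2 and chr10:23787190-23787239 on the minus strand for Rps12. A tract of a C followed by at least 4 C or T began exactly at the annotated start in 15 of the 75 member windows, against 2.51% of all 32851 RefSeq windows. It began within 10 bases of the start in 54.7% of the members' windows, against 30.7% of all windows. The letters CTTTCC, searched on the sense strand after the sequences had been seen, lay in the first 50 transcribed bases of 24.0% of the members' windows, against 2.09% of all windows. A pyrimidine tract near the start stood in members that fell and in members that did not, such as Rplp2 and Rps12. In the whole window on either strand, CCGGAAG was found in 36.0% of the members' windows against 8.86% of all windows, and GGGCGG in 61.3% against 35.7%. TATAAA in the 60 bases before the start was found in 1.33% of the members' windows and 2.87% of all windows.

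Ribosomal protein mRNAs took a smaller share of the reads in both cocultures than in monoculture. The 84 members held 2.32%, 2.59% and 2.92% of all gene counts in WT cocultures 1, 3 and 4, 2.13%, 2.18% and 2.36% in IL13KO cocultures, and 3.49%, 3.66%, 3.86% and 3.56% in monocultures. Every coculture library lay below every monoculture. WT coculture 1 lay within the range of the IL13KO cocultures, and the other WT cocultures lay above it. The group means were 2.61% ± 0.299 in WT cocultures (SD, n = 3), 2.23% ± 0.124 in IL13KO cocultures (SD, n = 3) and 3.64% ± 0.158 in monocultures (SD, n = 4). The mean share was thus 28.3% lower in WT coculture and 38.9% lower in IL13KO coculture than in monoculture. These shares are of sequenced RNA, and fewer cells of a type and less RNA per cell cannot be told apart in bulk samples.

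The lower share was seen in both subunits. Large subunit genes held 1.44% ± 0.165 of counts in WT cocultures, 1.23% ± 0.0651 in IL13KO cocultures and 1.99% ± 0.0840 in monocultures. Small subunit genes held 0.974%, 1.10% and 1.23% in WT cocultures, 0.891%, 0.914% and 0.996% in IL13KO cocultures, and 1.48%, 1.56%, 1.65% and 1.51% in monocultures. The ratio of large to small subunit counts was 1.31 ± 0.0185 in WT cocultures, 1.32 ± 0.00851 in IL13KO cocultures and 1.28 ± 0.00884 in monocultures, and the IL13KO cocultures lay above all monocultures by a small margin. The paralogs held 0.0732% of counts in WT cocultures, 0.0594% in IL13KO cocultures and 0.109% in monocultures.

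**Figure D1:**
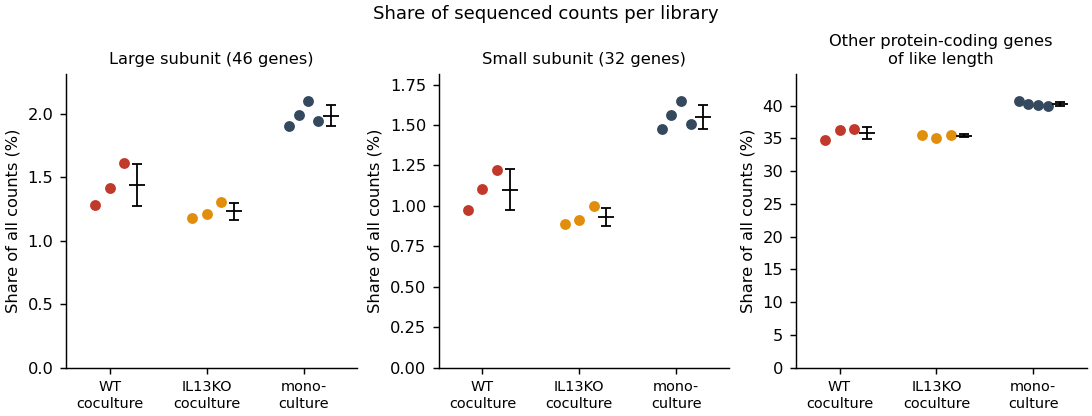
Share of all gene counts (%, vertical axis) held by large subunit genes, small subunit genes and other protein-coding genes of like length in each library. Points are libraries and bars give mean and SD. Every coculture point lies below every monoculture point, and the means of the large subunit are 1.44% in WT cocultures, 1.23% in IL13KO cocultures and 1.99% in monocultures.

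Ribosomal protein genes are short, and the transcript length of the members had a median of 688.75 nt, against 2182 nt for all protein-coding genes tested. Protein-coding genes of like length (390.6 to 1420 nt, 3661 tested) held 35.8% of counts in WT cocultures, 35.4% in IL13KO cocultures and 40.2% in monocultures. Short genes as a class thus took less of the reads in coculture, by a smaller proportion than the members did. Values with the trend over GC content, and then the trend over length, removed are given below. The part of length alone in the members' values was not tested. Mitochondrially encoded transcripts held 0.470% of counts in WT cocultures, 0.468% in IL13KO cocultures and 0.650% in monocultures. WT coculture 1 had 0.303%, the lowest value of the 10 libraries, and was also the WT coculture with the lowest share of ribosomal protein reads. The part of these differences in the members' values was not tested.

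In WT coculture against monoculture, 60 of 83 ribosomal protein genes fell, 1 rose and 22 did not pass the test (edgeR's quasi-likelihood test, Benjamini-Hochberg adjusted p below 0.05 over 16344 genes). Of all genes tested, 29.7% were called lower and 32.8% higher. The median log2 fold change of the members was -0.43, against 0.02 for all genes tested. Among protein-coding genes of like length 39.6% were called lower, with a median of -0.16. Of large subunit genes 32 of 46 fell (median -0.44), of small subunit genes 25 of 32 fell and 1 rose (median -0.44), and of the tested paralogs 3 of 5 fell (median -0.35).

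Rps27, a zinc finger protein of the small subunit (ENSMUSG00000090733, chr3:90212522-90213651), had the largest fall of the members in this comparison. It had 191, 250.1 and 266 CPM in WT cocultures, 236, 242 and 224 CPM in IL13KO cocultures, and 564, 608, 611 and 606 CPM in monocultures. All 6 cocultures lay below the lowest monoculture, and the 2 coculture groups overlapped. The log2 fold change was -1.34 ± 0.11 (SE, adjusted p = 5.4e-07) in WT coculture and -1.35 ± 0.11 (adjusted p = 1.3e-06) in IL13KO coculture against monoculture. Its near copy Rps27rt had log2 fold changes of -1.27 and -1.36. The transcripts of Rps27 and Rps27rt share a run of 38 identical bases from base 2 and base 1, and the ratio of Rps27rt to Rps27 was 0.419 to 0.429 in WT cocultures, 0.392 to 0.408 in IL13KO cocultures and 0.398 to 0.411 in monocultures. Reads can be split between these 2 genes, so that they may not be separate measurements. How reads were assigned to them was not examined.

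Rps26, which lies at the mRNA exit of the small subunit (ENSMUSG00000025362, chr10:128624534-128626747), had 201, 205 and 289 CPM in WT cocultures, 167, 171 and 177 CPM in IL13KO cocultures, and 429, 459, 439 and 429 CPM in monocultures. The 3 groups did not overlap. Its log2 fold change was -0.92 ± 0.12 in WT coculture (adjusted p = 2.4e-05) and -1.35 ± 0.12 in IL13KO coculture (adjusted p = 2.6e-06).

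Other members with large falls in both cocultures were Rpl36a, Rpl37a, Rpl35, Rpl6 and Rps9. Rpl36a, which lines the exit site of the large subunit, had 78.1, 89.5 and 107 CPM in WT cocultures, 72.1, 76.6 and 77.6 CPM in IL13KO cocultures, and 160, 157, 163 and 163 CPM in monocultures. The fold changes in WT and IL13KO coculture on the log2 scale were -0.81 and -1.09 for Rpl36a, -0.83 and -1.06 for Rpl37a, -0.76 and -0.93 for Rpl35, and -0.74 and -1.13 for Rpl6. Rps9, at the mRNA entry of the small subunit, fell by 41.1% in WT coculture and fell by 50.1% in IL13KO coculture. All 10 of these tests passed, with adjusted p-values of 0.00015 or lower.

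**Figure D2:**
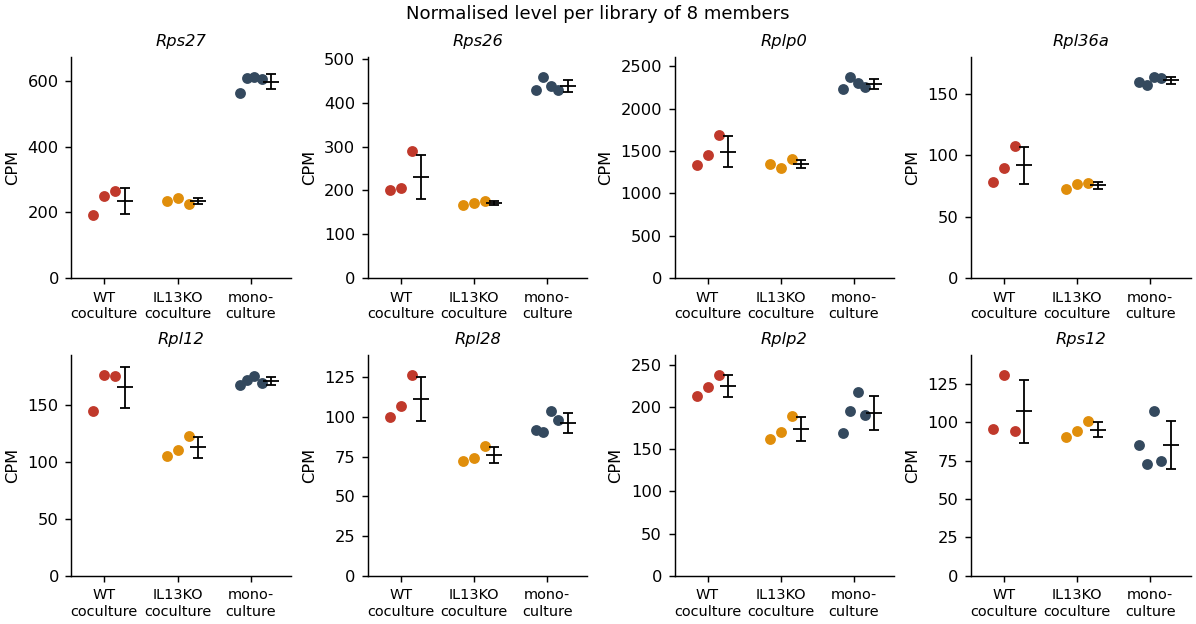
Normalised level (CPM, vertical axis) of 8 ribosomal protein genes in each library; points are libraries, and bars give mean and SD. Rps27, Rps26, Rplp0 and Rpl36a lie below all monocultures in every coculture, whereas Rpl12 and Rpl28 do so in every IL13KO coculture but not in every WT coculture and Rplp2 and Rps12 overlap the monocultures.

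In IL13KO coculture against monoculture, 75 of 83 ribosomal protein genes fell, 0 rose and 8 did not pass the test. Of all genes tested, 27.3% were called lower and 30.1% higher. No member was higher at an unadjusted p under 0.05 by edgeR, and DESeq2 and limma-voom called 0 members higher. The median log2 fold change of the members was -0.74, against 0.00 for all genes tested and -0.23 for genes of like length, of which 40.5% were called lower. Of large subunit genes 42 of 46 fell (median -0.76), of small subunit genes 28 of 32 fell (median -0.73), and all 5 tested paralogs fell (median -0.89).

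WT and IL13KO coculture were set against the same 4 monocultures, so their lists of lower genes are not independent. All 60 members that fell in WT coculture also fell in IL13KO coculture, and 15 more were called in IL13KO coculture alone. The same overlap was not counted for all genes tested or for genes of like length. Whether it is larger for the members than for other genes was therefore not tested. The 8 members that were not called lower in either included Rpl14, Rpl18, Rpl29 and Rplp2 of the large subunit and Rps10, Rps12 and Rpsa of the small subunit. Rps10 had the lowest level per kb of transcript of the 78 standard genes, at 17.2 CPM per kb in WT cocultures, 13.1 in IL13KO cocultures and 17.1 in monocultures, and its exons overlap another gene on the same strand.

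Rps12 was the member with the highest fold change in IL13KO coculture. It had 95.6, 131 and 94.6 CPM in WT cocultures, 90.6, 94.4 and 100.5 CPM in IL13KO cocultures, and 85.1, 72.8, 107 and 75.02 CPM in monocultures. The groups overlapped, and the log2 fold changes of 0.33 ± 0.15 in WT coculture (adjusted p = 0.066) and 0.16 ± 0.15 in IL13KO coculture (adjusted p = 0.36) did not pass the test.

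The stalk of the large subunit, formed by Rplp0, Rplp1 and Rplp2, recruits the elongation factors to the ribosome. Its 3 genes did not move together. Rplp0, the base of the stalk and the member with the highest level per kb in all groups, had 1339, 1452 and 1691 CPM in WT cocultures, 1343, 1301 and 1403 CPM in IL13KO cocultures, and 2239.6, 2374, 2303 and 2261 CPM in monocultures. It fell by 0.62 on the log2 scale in WT coculture (SE 0.09, adjusted p = 5.9e-05) and by 0.77 in IL13KO coculture (SE 0.09, adjusted p = 1.8e-05). Rplp1 fell by 0.63 in WT coculture and by 0.79 in IL13KO coculture. Rplp2 had 213, 224 and 238 CPM in WT cocultures, 162, 170.1 and 189.5 CPM in IL13KO cocultures, and 169, 195, 217 and 191 CPM in monocultures. The Rplp2 groups overlapped with monoculture, and its log2 fold changes of 0.22 ± 0.10 (adjusted p = 0.066) and -0.15 ± 0.10 (adjusted p = 0.22) did not pass, except that Rplp2 rose in WT coculture without monoculture 3 (0.28, adjusted p = 0.020). Rpl12, which sits at the foot of the stalk, had 144, 176 and 175 CPM in WT cocultures, 105, 111 and 122 CPM in IL13KO cocultures, and 167, 172, 175 and 169 CPM in monocultures. The IL13KO cocultures lay below all other libraries for Rpl12, with a log2 fold change against monoculture of -0.60 ± 0.10 (adjusted p = 0.00018), and the WT cocultures overlapped the monocultures (-0.05 ± 0.09, adjusted p = 0.67).

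Rpl5 and Rpl11 form a particle with the 5S ribosomal RNA that also binds Mdm2, the inhibitor of p53. Rpl5 had a log2 fold change of -0.11 ± 0.09 in WT coculture (adjusted p = 0.33) and fell by 0.39 in IL13KO coculture (SE 0.10, adjusted p = 0.0036), a call that was lost after removal of the trend over GC and length (-0.13, adjusted p = 0.32). Of the exon bases of Rpl5, 24.3% lie opposite another gene, and reads of the 2 strands cannot be told apart where counting does not use strand. Rpl11 fell by 0.43 in WT coculture (adjusted p = 0.0032) and by 0.76 in IL13KO coculture (adjusted p = 6.1e-05).

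The same limit applies to other members with over 10% of their exon bases opposite another gene, among them Rpl35 (66.2%), Rpl23a (59.7%), Rpl31 (25.3%), Rps25 (24.8%) and Rpl30 (20.4%). On the same strand, Rpl24 (47.0%), Rpl13a (29.4%), Rpl36al (24.5%) and Rps10 (20.6%) share exon bases with another gene, and reads there can be split between the 2 genes.

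Fau and Rps27a encode ribosomal proteins that are made as fusions with a ubiquitin-like protein or ubiquitin. Fau fell by 0.57 in WT coculture (adjusted p = 0.00028) and by 0.90 in IL13KO coculture (adjusted p = 1.2e-05). Rps27a fell by 0.30 in WT coculture (adjusted p = 0.027) and by 0.67 in IL13KO coculture (adjusted p = 0.0002). The call of Rps27a in WT coculture was lost without WT coculture 1 (-0.17, adjusted p = 0.15) and without monoculture 2 (-0.29, adjusted p = 0.053). Rps6, the substrate of the S6 kinases, had 422, 486 and 549 CPM in WT cocultures, 361, 360.0 and 421 CPM in IL13KO cocultures, and 642, 624, 649 and 615 CPM in monocultures. It fell by 0.38 in WT coculture (SE 0.10, adjusted p = 0.0049) and by 0.73 in IL13KO coculture (SE 0.10, adjusted p = 6e-05). Rpsa, which is also known as a laminin receptor, had 215, 231 and 266 CPM in WT cocultures, 179.5, 191 and 204 CPM in IL13KO cocultures, and 206, 224.5, 306 and 218 CPM in monocultures. Monoculture 3 stood above all other libraries for Rpsa, and neither coculture passed the test (adjusted p = 0.97 in WT coculture and 0.057 in IL13KO coculture). Without monoculture 1, Rpsa was called lower in IL13KO coculture (-0.38, adjusted p = 0.022).

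Several members are known for effects on the translation of particular mRNAs. Rps25, needed for initiation at viral internal entry sites, fell by 0.57 in WT coculture (adjusted p = 0.00027) and by 0.87 in IL13KO coculture (adjusted p = 1.6e-05). Rpl38, needed for the translation of Hox mRNAs in the mouse embryo, had 101, 152.5 and 125 CPM in WT cocultures, 84.5, 92.5 and 89.9 CPM in IL13KO cocultures, and 146, 149.5, 169 and 157 CPM in monocultures. It fell by 0.80 in IL13KO coculture (SE 0.13, adjusted p = 0.00015). In WT coculture it overlapped the monocultures and fell by 0.30 (SE 0.12, adjusted p = 0.049), a call that did not hold without WT coculture 1 (-0.15, adjusted p = 0.26) or WT coculture 4 (-0.28, adjusted p = 0.12), nor without any of the IL13KO cocultures or monocultures 2, 3 and 4 (adjusted p from 0.059 to 0.091). Rpl10a fell by 0.52 and 0.74 in WT and IL13KO coculture. Rpl41, among the shortest ribosomal proteins, fell by 0.42 and 0.79. Rps18, often used as a reference gene, fell by 0.27 in WT coculture (adjusted p = 0.018; -0.18 and adjusted p = 0.093 without WT coculture 1) and by 0.41 in IL13KO coculture (adjusted p = 0.0018).

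**Figure D3:**
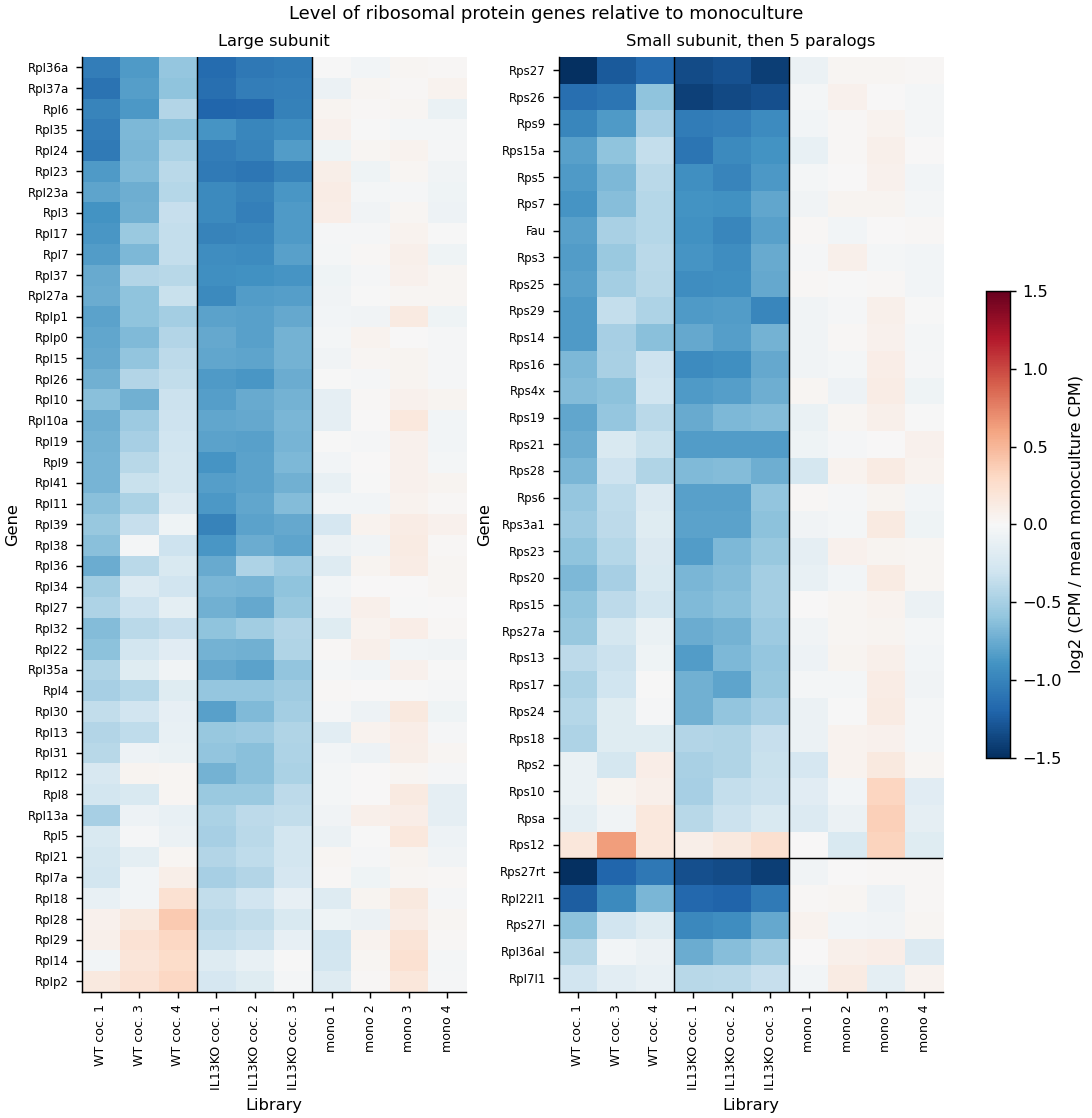
Level of 80 of the 83 tested genes in each library as log2 of its CPM over the mean monoculture CPM (colour, blue lower and red higher); rows are genes, columns are libraries. Most rows are blue in all 6 cocultures, darkest in IL13KO cocultures, while Rps12, Rplp2, Rpl28, Rpl29 and Rpl14 are pale or red in WT cocultures.

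The libraries differed among themselves over the whole set of members. Relative to the mean of the monocultures, the median log2 level of the 83 tested members was -0.65 in WT coculture 1, -0.41 in WT coculture 3 and -0.28 in WT coculture 4. It was -0.80, -0.79 and -0.67 in the IL13KO cocultures, and -0.06, 0.01, 0.08 and -0.03 in the monocultures. Of the 83 members, 73, 67 and 60 lay below all 4 monocultures in WT cocultures 1, 3 and 4, and 81, 80 and 77 did so in the IL13KO cocultures. Of all genes tested, 37.1%, 35.3% and 34.3% lay below all 4 monocultures in WT cocultures 1, 3 and 4, and 34.3%, 35% and 34.4% did so in the IL13KO cocultures. The share among genes of like length ranged from 43.8% to 48.6% over WT cocultures and from 47.1% to 48.8% over IL13KO cocultures. The WT cocultures thus spread more than the IL13KO cocultures, and WT coculture 1 came closest to them.

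In IL13KO coculture against WT coculture, 37 of 83 ribosomal protein genes fell, 0 rose and 46 did not pass the test. Of all genes tested, 11.6% were called lower and 11.7% higher. At an unadjusted p under 0.05, edgeR gave 57 members lower and 0 higher, and DESeq2 and limma-voom called 0 members higher. The log2 fold change was below 0 for 82 of the 83 members and for 49.6% of all genes tested. The members had a median of -0.31, against 0.00 for all genes tested and -0.02 for genes of like length, of which 15.9% were called lower. The count rested on single libraries. Without WT coculture 1, 57 members (68.7%) were called lower, against 10.8% of all genes tested. Without WT coculture 3 these were 20 (24.1%, against 8.25%), and without WT coculture 4 they were 6 (7.23%, against 7.22%). Without IL13KO cocultures 1, 2 and 3 they were 5 (6.02%, against 6.96%), 8 (9.64%, against 6.53%) and 27 (32.5%, against 8.70%). The share of members was thus near that over all genes without WT coculture 4 or IL13KO coculture 1. It was then below that of genes of like length (10.3% and 9.89%). The 5 members that were called lower with every one of the 10 libraries left out in turn included Rpl12, Rpl28, Rpl35a and Rps27l.

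Rpl28, a large subunit protein, had 72.4, 74.3 and 81.8 CPM in IL13KO cocultures and 100.3, 107 and 127 CPM in WT cocultures, with 91.7, 90.8, 104 and 97.9 CPM in monocultures. The IL13KO cocultures lay below all other libraries, and the log2 fold change against WT coculture was -0.55 ± 0.11 (adjusted p = 0.0032). Rpl12 fell by 0.55 (SE 0.10, adjusted p = 0.0018) and Rpl35a by 0.50 (SE 0.11, adjusted p = 0.0054) in IL13KO coculture against WT coculture. Rps27, with the largest fall in WT coculture against monoculture, had a log2 fold change of -0.01 ± 0.11 (adjusted p = 0.97) in IL13KO coculture against WT coculture. Rps26 fell by 0.43 (SE 0.13, adjusted p = 0.025), and Rpl23, which also binds Mdm2, by 0.42 (SE 0.11, adjusted p = 0.015); each of these calls was lost with at least 1 library left out. The summed leukocyte and ILC2 markers were higher in WT cocultures than in IL13KO cocultures, mostly through Cd53 and Il1rl1. Il5 was also lower in IL13KO coculture. Il13 had no reads there, but those ILC2s were without IL-13 by design, so it is no separate marker. Coro1a and Gata3 were not called between the cocultures (adjusted p = 0.39 and 0.073). Rora went the other way and was higher in IL13KO coculture (log2 fold change 0.40, adjusted p = 0.026). The part of these markers in the difference between the cocultures was not tested.

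**Figure D4:**
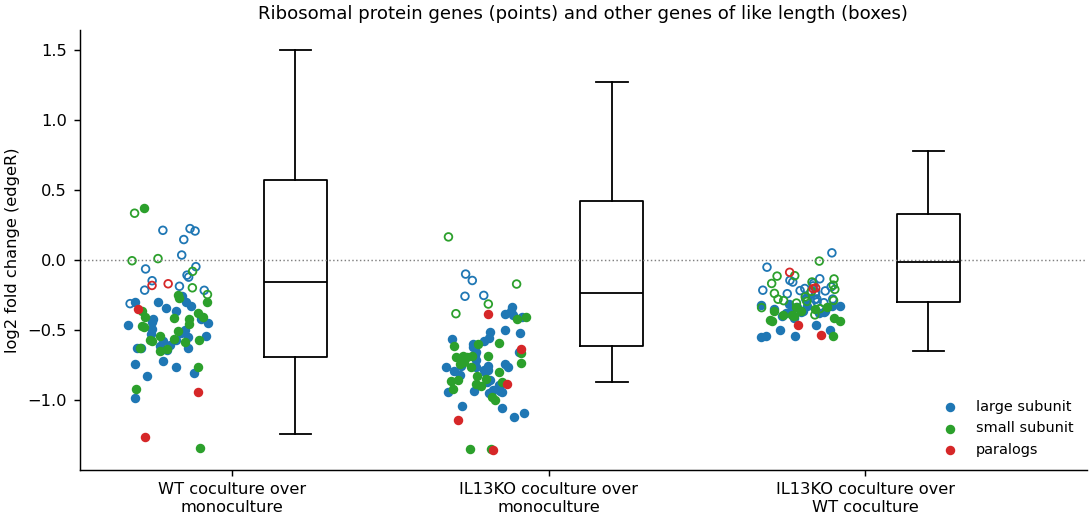
log2 fold change (vertical axis) of each tested ribosomal protein gene in the 3 comparisons, with filled points for genes called and open points for genes not called. The boxes give the quartiles and median of other protein-coding genes of like length, with whiskers at the 10th and 90th percentiles; the members' medians of -0.43, -0.74 and -0.31 lie below the boxes' medians of -0.16, -0.23 and -0.02.

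The paralogs did not follow their standard partners exactly. The ratios of paralog to partner given below use CPM from which the trend over GC and length was not removed. The part of that trend in these ratios was not tested. Rpl22l1, a paralog of Rpl22 that can take its place in the ribosome, had 93.5, 114 and 137 CPM in WT cocultures, 97.4, 95.9 and 106 CPM in IL13KO cocultures, and 224, 225, 209 and 224 CPM in monocultures. All cocultures lay below all monocultures. Rpl22l1 fell by 0.94 in WT coculture (SE 0.12, adjusted p = 1.6e-05) and by 1.15 in IL13KO coculture (SE 0.12, adjusted p = 6.7e-06), and the call in WT coculture was lost after removal of the trend over GC and length (-0.20, adjusted p = 0.083). Rpl22 fell by 0.34 in WT coculture (adjusted p = 0.021; -0.21 and adjusted p = 0.12 without WT coculture 1) and by 0.62 in IL13KO coculture (adjusted p = 0.00065). The ratio of Rpl22l1 to Rpl22 was 1.58, 1.52 and 1.69 in WT cocultures, 1.75, 1.74 and 1.59 in IL13KO cocultures, and 2.44, 2.35, 2.37 and 2.56 in monocultures, without overlap between either coculture and monoculture.

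Rps27l, a paralog of Rps27 and a known target of p53, had 268, 336 and 358 CPM in WT cocultures, 209, 215 and 240.2 CPM in IL13KO cocultures, and 427, 399, 394 and 419 CPM in monocultures. The 3 groups did not overlap. Rps27l fell by 0.35 in WT coculture (SE 0.10, adjusted p = 0.0097) and by 0.89 in IL13KO coculture (SE 0.11, adjusted p = 2e-05), and it fell by 0.53 in IL13KO coculture against WT coculture (SE 0.11, adjusted p = 0.0038). After removal of the trend over GC and length its direction in WT coculture turned (0.24, adjusted p = 0.025), the call in IL13KO coculture was lost (-0.20, adjusted p = 0.067), and without WT coculture 1 the WT call was lost (-0.23, adjusted p = 0.051). The ratio of Rps27l to Rps27 was 1.40, 1.34 and 1.35 in WT cocultures, 0.886, 0.889 and 1.07 in IL13KO cocultures, and 0.756, 0.656, 0.645 and 0.691 in monocultures. The 3 groups stood apart in this ratio.

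Rpl36al had 0.254 ± 0.0275 of the level of Rpl36a in WT cocultures, 0.222 ± 0.00862 in IL13KO cocultures and 0.162 ± 0.0160 in monocultures. Rpl7l1 had 0.422 ± 0.0468 of the level of Rpl7 in WT cocultures, 0.440 ± 0.0109 in IL13KO cocultures and 0.310 ± 0.0324 in monocultures. For both pairs each coculture group lay above all monocultures, and the 2 coculture groups overlapped. The ratios were compared in 18 ways, and with 3 and 4 libraries an exact two-sided permutation test cannot go below p = 0.0571, and with 3 and 3 libraries not below p = 0.1, so no such test can pass 0.05.

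**Figure D5:**
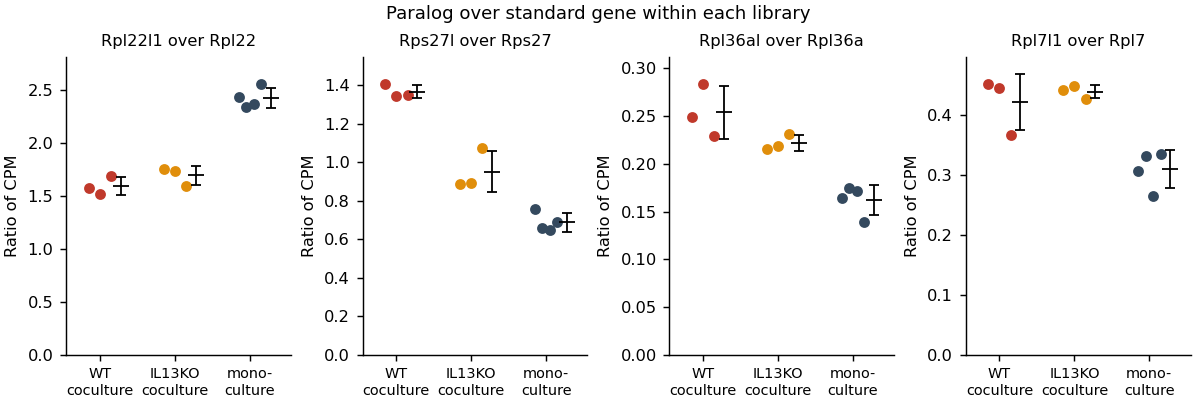
Ratio of the CPM of a paralog to that of its standard partner (vertical axis) in each library; points are libraries, and bars give mean and SD. Rpl22l1 over Rpl22 is lower in both cocultures than in monoculture, whereas Rps27l over Rps27 is highest in WT cocultures (1.37) and lowest in monocultures (0.687).

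Beyond function, the members shared few features with the size of their change. Across the 83 genes Spearman's rho between log2 fold change and GC content was 0.17 in WT coculture, 0.32 in IL13KO coculture and 0.17 between the cocultures, and with transcript length it was 0.11, 0.16 and -0.02. These are correlations across genes of the same libraries and describe them only. The 30 tested members that hold an annotated small nucleolar RNA had medians of -0.36 in WT coculture and -0.68 in IL13KO coculture, and the 53 others had medians of -0.45 and -0.77. The genes lie on 20 chromosomes. Of 156 tested pseudogenes of ribosomal protein genes, 60 were called lower and 3 higher in WT coculture. The 38.5% called lower was close to the 39.6% of genes of like length, but only 1.92% were called higher, against 27.3%. The median log2 fold change of the pseudogenes there was -0.37, against -0.43 for the members and -0.16 for genes of like length. In IL13KO coculture 95 pseudogenes were called lower (60.9%, against 40.5% of genes of like length) and 0 higher. Reads of near-identical copies may be split between a member and its pseudogenes, and pseudogenes held 0.325% of counts in WT cocultures, 0.271% in IL13KO cocultures and 0.429% in monocultures.

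Genes of the same pathway were read from 5 lists, beside the background over all genes tested, of which 29.7% were called lower and 32.8% higher in WT coculture and 27.3% lower and 30.1% higher in IL13KO coculture. Of 23 other TOP mRNAs, 12 fell (52.2%) and 4 rose (17.4%) in WT coculture, and 15 fell (65.2%) and 2 rose (8.70%) in IL13KO coculture, with medians of -0.23 and -0.53. Eef1a1, the elongation factor that brings aminoacyl-tRNA to the ribosome, averaged 2110.4 ± 266 CPM in WT cocultures, 2135 ± 78.3 CPM in IL13KO cocultures and 4058 ± 211 CPM in monocultures. It fell by 0.94 in WT coculture and by 0.93 in IL13KO coculture. Hnrnpa1, an RNA-binding protein with a TOP mRNA, rose in WT coculture (log2 fold change 1.12 ± 0.12, adjusted p = 4e-06).

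Of 77 mitochondrial ribosomal protein genes, 44 fell (57.1%) and 5 rose in WT coculture and 63 fell (81.8%) and 0 rose in IL13KO coculture, with medians of -0.34 and -0.55. Among protein-coding genes as short as the cytosolic members, 39.6% and 40.5% were called lower. Mrpl24 averaged 50.8 ± 3.08 CPM in WT cocultures and 97.2 ± 4.60 CPM in monocultures, a fall of 0.94 on the log2 scale. Of 20 genes for the assembly of ribosomes and the import of ribosomal proteins, 11 rose (55%) and 4 fell (20%) in WT coculture (median 0.42). In IL13KO coculture 8 rose (40%) and 5 fell (25%), shares near those over all genes for a list of this size (median 0.14). Rrs1, needed for the large subunit precursor, averaged 249 ± 6.82 CPM in WT cocultures, 149.6 ± 5.04 CPM in IL13KO cocultures and 104 ± 7.54 CPM in monocultures. Bysl, needed for the small subunit precursor, rose by 1.52 in WT coculture and by 1.26 in IL13KO coculture. Against WT coculture, 8 of these 20 genes fell (40%, against 11.6% of all genes) and 0 rose in IL13KO coculture, Rrs1 by 0.73 (adjusted p = 9.5e-05).

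Of 31 translation initiation factors, 12 rose (38.7%) and 7 fell (22.6%) in WT coculture, shares near those over all genes. In IL13KO coculture 6 rose (19.4%) and 15 fell (48.4%). The scaffold Eif4g1 averaged 224 ± 36.2 CPM in WT cocultures, 192 ± 20.4 CPM in IL13KO cocultures and 36.1 ± 9.27 CPM in monocultures, and rose by 2.64 and 2.42 on the log2 scale. The helicase Eif4a2 averaged 53.4 ± 8.45 CPM in WT cocultures, 78.7 ± 3.47 CPM in IL13KO cocultures and 194 ± 25.4 CPM in monocultures, and fell by 1.86 and 1.30. Of 24 genes of mTORC1 and translation control, 15 rose (62.5%) and 5 fell (20.8%) in WT coculture, against 32.8% and 29.7% of all genes, and 13 rose (54.2%) and 4 fell (16.7%) in IL13KO coculture, against 30.1% and 27.3%. Deptor, an inhibitor of mTOR, averaged 17.1 ± 2.75 CPM in WT cocultures, 51.1 ± 1.37 CPM in IL13KO cocultures and 94.4 ± 19.9 CPM in monocultures. Sesn2, a stress-induced inhibitor of mTORC1, averaged 63.0 ± 17.1 CPM in WT cocultures, 65.8 ± 6.34 CPM in IL13KO cocultures and 9.03 ± 3.76 CPM in monocultures. The log2 fold changes of Sesn2 were 2.81 ± 0.26 in WT coculture (adjusted p = 1.6e-06) and 2.87 ± 0.26 in IL13KO coculture (adjusted p = 3.1e-06).

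With the trend of GC content and length over other protein-coding genes removed, an alternative chosen after seeing the data, 50 members were lower and 3 higher in WT coculture and 76 lower and 0 higher in IL13KO coculture. The median of the members relative to that of all genes was then -0.23 in WT coculture, -0.50 in IL13KO coculture and -0.26 between the cocultures, against -0.44, -0.75 and -0.31 without this correction. The calls of Rps25 (-0.12, adjusted p = 0.27), Rps27a (0.0059, adjusted p = 0.96) and Rps6 (-0.16, adjusted p = 0.13) in WT coculture were lost with it.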

How the data were processed

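Bulk RNA was measured in 10 libraries. Per the labels' protocols, 5 to 15 ng of RNA went into a low-input kit and were sequenced as paired reads of 50 nt. Per the submitters' processing notes, the tools were STAR 2.7.7a, Salmon 1.6.0, Trimmomatic 0.39, FastQC 0.11.9, DESeq2 and Picard, with the build GRCm38.p6; which tool counted, with which annotation and on which strand is not given in the sources used here. The authors deposited whole-number counts per gene, the basis of every test here. Their other table, of normalized values, was not used. Symbols, lengths and overlaps came from GENCODE M21 (22639 identifiers matched). A gene's length is the median over its protein-coding transcripts, and like-length genes lie between the 5th and 95th percentile of the members.

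Counts were filtered by filterByExpr, TMM-normalised and fitted in edgeR 4.0.16 (R 4.3.3, quasi-likelihood, 1 coefficient per group, all 10 libraries), with Benjamini-Hochberg adjustment per comparison at 0.05. Alternatives used DESeq2 1.42.0, limma 3.58.1 (voom), other scalings and filters, thinned libraries, a loess (span 0.4) on GC and then on length, a replicate block, and each library left out. At the lowest total, 10710410 counts, 3 reads come to 0.276 CPM, and such limits cover counting error only. The members and lists were chosen with earlier results of these data known. Named genes were up to 8 called members per direction with the largest change, fixed members with special roles, paralog pairs, and up to 3 genes per other list with the smallest adjusted p; members called whichever library was left out, Rpl39l and those not called lower were named after their values were seen. Symbols annotated as pseudogenes without the -ps ending were left out. The results of some members are not reported here, although they are in the counts.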

Additional observations from a re-analysis of the deposited data

Results flagged for a closer look

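In 5 of 36 named members, 1 of the 4 monocultures stood apart from the other 3, with a gap to its nearest neighbour, over the whole range, above the critical value of Dixon's test. Chance alone flags about 1 in 20 groups of this size. Monoculture 3 was high for Rplp1 (541 CPM) and low for Rpl22l1 (209 CPM). Monoculture 1 was low for Rps27 (564 CPM) and for its near copy Rps27rt (232 CPM), a pair between which reads can be split. Monoculture 2 was low for Fau (336 CPM). In all 5 genes each coculture library still lay below the lowest monoculture.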

How the results depend on the processing

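The count of lower members kept within 1.5 times of the reported count under every alternative in WT coculture (50 to 69) and in IL13KO coculture (74 to 81). Same-numbered libraries had correlations of their deviations from the group means of -0.126 to 0.028, and differently numbered libraries of -0.153 to 0.14. Deviations from a mean of 3 or 4 libraries are tied to one another. Whether the column numbers pair the libraries therefore cannot be decided from these values. With a replicate block on these numbers, 8 members (9.64%) were lower in IL13KO coculture against WT coculture, in place of 37 (44.6%). Of all genes tested 6.03% were then called lower, in place of 11.6%. Of genes of like length 8.49% were, in place of 15.9%. Leaving out 1 library gave 5 to 57 lower in that comparison, 50 to 63 in WT coculture and 74 to 79 in IL13KO coculture. The 5, without IL13KO coculture 1, were 6.02% of the members, against 6.96% of all genes tested. The count of higher members in WT coculture was 1, and it was 0 with upper-quartile scaling, 2 with no filter on low counts, with the block and with the trend over GC and length of all genes taken out, 3 with the trend of other protein-coding genes removed, and 1 to 3 without 1 library. The share of counts was 3.28%, 2.82% and 4.59% in WT coculture, IL13KO coculture and monoculture without the 100 most abundant genes, and 2.94%, 2.497% and 4.07% with pseudogenes added. Over the members' full range of lengths, 32.6%, 29.5% and 13.7% of like-length genes were called lower in the 3 comparisons.

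Some values changed sign, among them 2 called falls. In WT coculture Rps27l (-0.35, called lower) was 0.28 (adjusted p = 0.013) with the protein-coding trend removed and 0.24 (adjusted p = 0.025) with the all-gene trend removed, and was then called higher. Rps27a (-0.30, called lower) was 0.0059 with the protein-coding trend removed. Rpl39 (0.0053), Rpl36al (0.025) and Rpl5 (0.25), which were not called lower, were also above 0 with it. Rpl5 was 0.13 with the all-gene trend removed. Rpsa was 0.023 with no filter, 0.0065 with limma-voom and 0.011 with thinned libraries, and -0.0869 to 0.13 without 1 library. In IL13KO coculture against WT coculture Rps27 was 0.0054 with upper-quartile scaling, 0.0070 with limma-voom, 0.029 with the replicate block, 0.12 with the all-gene trend and 0.014 with the protein-coding trend removed, and -0.143 to 0.0824 without 1 library. The cause was not tested. The median of all genes shifted by -0.12 in WT coculture and -0.10 in IL13KO coculture with upper-quartile scaling, by -0.16 and -0.19 with the all-gene trend removed, and by -0.11 and -0.15 with the protein-coding trend removed; relative to all genes the members then stood at -0.44 and -0.75, -0.27 and -0.45, and -0.23 and -0.50. With libraries thinned to equal depth, 57 members were lower in WT coculture, 76 in IL13KO coculture and 33 between the cocultures, in place of 60, 75 and 37.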
